A study of Mus musculus with 12 samples.

Results

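The Ube2 genes encode ubiquitin-conjugating enzymes (E2), described here by their N6-methyladenosine (m6A) peaks in testes of 18-day-old mice with and without Alkbh5. The members are all peaks whose gene name in the authors' annotation is Ube2 followed by a letter and, where present, further letters or digits. This gave 39 of 33078 peaks in the wild-type (WT) list and 36 of 32277 in the knockout (KO) list, in 27 of the 17805 genes with a peak. The name fits the contents, since RefSeq lists all 27 genes as protein-coding Ube2 genes, and Ube2cbp, which matches the pattern but is no E2, had no peak.

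Ubiquitin passes from an activating enzyme (E1) to the active-site cysteine of an E2, and an E3 ligase then brings the loaded E2 to its substrate. The E2, alone or with a partner, often sets which linkage the ubiquitin chain takes, and a few E2s carry SUMO, NEDD8 or ISG15 in place of ubiquitin. In male germ cells ubiquitin marks chromatin during meiosis and spermatid formation, and mice without Ube2b or Ube2j1 have defects in sperm production. m6A is written on messenger RNA near stop codons and in 3' UTRs above all, and Alkbh5 removes it.

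Polyadenylated RNA of whole testis was fragmented, and an m6A antibody was used to enrich methylated fragments (IP libraries), next to input libraries without pull-down. There were 3 IP and 3 input libraries for each genotype, 12 in all. All animals were at postnatal day 18. The genotypes are labelled WT and KO, and the study's title and design text name the KO as an Alkbh5 knockout. The labels used here do not give the deleted part of the gene, the strain or whether animals were pooled. The data are 1 peak list per genotype, each with 1 fold per peak (the authors' ratio of IP over input), a false discovery rate (FDR) and a position class. Values per library were not used here, so there is no replicate error, no test between genotypes, and the depth behind each peak is unknown. The intervals given are Wilson 95% intervals, or order-statistic 95% intervals for medians, and cover counting error alone.

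Alkbh5 itself had 3 WT peaks and 0 KO peaks. Of 6 marker genes of meiotic germ cells 4 had a WT and 3 a KO peak, of 4 spermatogonia markers 3 had one in each list, and of 4 spermatid markers 0 had a WT and 1 a KO peak. Sertoli cell markers had peaks in 4 of 4 genes in WT and 3 of 4 in KO, and Leydig cell markers in 2 of 4 in both. Of 3 genes that mark other tissues, 2 had a WT peak (Myh6 and Ins2) and 1 a KO peak (Myh6), and 57.8% of all protein-coding genes had a WT and 57.2% a KO peak, so a peak does not mark a cell type here. Ddx4 and Hormad1, which mark germ cells, had no peak in either list. A transcript without a peak may still be expressed, and these counts show no cell numbers.

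The sequences shown first are the places where a 5' peak of a Ube2 gene overlaps an entry of the RefSeq promoter table (GRCm38.p6). Each entry runs from 250 bases before a transcript start to 50 after it. GGAC, the core of the sequence that the m6A writer complex prefers, was searched on the gene's strand, and GTCC, its complement, in the same stretches. Of 27 genes with a peak 21 had an entry, 6 had a peak over it, and GGAC lay within the overlap in 3 (Ube2k, Ube2m and Ube2l3). The sites are printed 5' to 3' on the minus or plus strand of the gene, with GGAC in capitals. They are shown because Ube2k and Ube2m carry the 2 strongest 5' UTR peaks of the family in the WT list, and because the Ube2m coding peak reached farther in the KO list.
Ube2k, 5' UTR peak in both lists, chr5:65537269-65537292, plus strand: gcgcatgcgcGGACccggcgccat
Ube2m, 5' UTR peak in both lists, chr7:13038062-13038085, minus strand: ggagagcggcGGACctgtaaaggc
Ube2m, 5' UTR peak in both lists, chr7:13037985-13038008, minus strand: gagggcgcggGGACcgtagcaggg
Ube2m, coding peak of the KO list, chr7:13037597-13037619, minus strand: taggggtcgGGACcctgcgttcg
Ube2m, coding peak of the KO list, chr7:13037578-13037599, minus strand: tcgaggtcagGGACcgtggcga
Ube2l3, WT-only 5' UTR peak, chr16:17201586-17201609, minus strand: tatagccctgGGACctgcacacag

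All 6 sites read GGACC, and none reads GGACT. Each stretch searched was only the part of a peak inside an entry. Stretches at the same place held GGAC in 22.2% of the 32851 entries for the 62 bases of Ube2k. The share was 56.3% for 228 bases of the Ube2m 5' UTR peak. It was 16.2% for 42 of the 213 bases of the KO Ube2m coding peak and 54.5% for the 226 bases of Ube2l3. Counting both strands, these shares were 38.7%, 80.6%, 28.6% and 79.3%. GTCC lay 2 times in the 228 bases of Ube2m and 1 time in the stretch of Ube2l3. It also lay 1 time in the 80 bases that the WT Ube2m 5' UTR peak shared with a further entry, the one that holds the coding sites. The Ube2l3 site and both Ube2m 5' UTR sites lie before the RefSeq transcript start of their entry, inside the longer gene models of the authors' annotation. No GGAC lay in the 67 bases of Ube2n or the 50 bases of Ube2h that a 5' peak shared with an entry. Nor did it lie in the 5 bases of Ube2q2 or in those 80 bases of Ube2m, which says only that GGAC is not in those windows. A match is a description of the sequence and does not locate the methylated base.

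Ube2 peaks lay mostly in 3' UTRs, and none lay in a noncoding exon. The 3' UTR held 27 of 39 WT peaks (69.2%, 53.6 to 81.4) and 26 of 36 KO peaks (72.2%, 56.0 to 84.2), against 48.9% and 48.8% of all peaks. The 5' UTR held 8 WT peaks (20.5%, 10.8 to 35.5) and 7 KO peaks (19.4%, 9.75 to 35.0), against 12.0% and 12.4% of all. Coding exons held 3 peaks in each list, in Ube2d2a, Ube2m and Ube2o, or 7.69% (2.65 to 20.3) in WT and 8.33% (2.87 to 21.8) in KO, against 17.8% and 19.5% of all. Noncoding exons held 0 of 39 WT and 0 of 36 KO peaks, which allows shares of up to 7.69% and 8.33% at 3 counts of the total (8.97% and 9.64% as Wilson upper bounds), against 16.6% and 14.7% of all. All Ube2 genes with a peak are protein-coding, whereas the lists also hold noncoding genes. Peaks in noncoding exons count in the totals of all peaks and so lower the 3' UTR and other shares given for all peaks. Shares over protein-coding genes alone were not computed. The 1 intronic peak was that of Ube2v2 in WT.

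**Figure D1:**
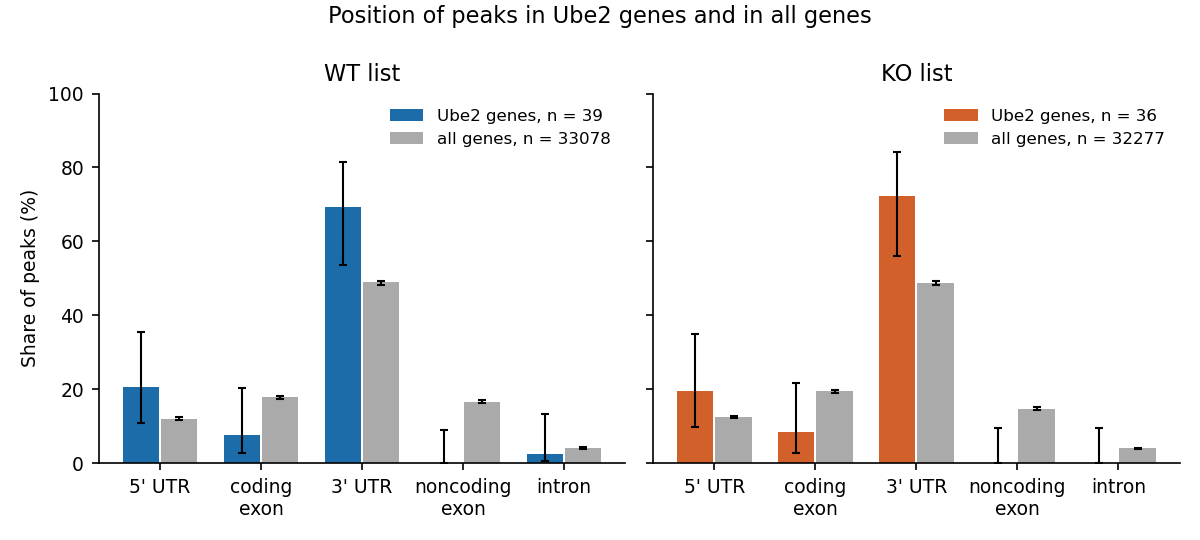
Share of peaks (%) by position class in the WT list (left) and the KO list (right), for Ube2 genes (coloured) and all genes (grey). Bars start at 0 and the error bars are Wilson 95% intervals over peaks. The 3' UTR bar of Ube2 genes stands at 69.2% in WT and 72.2% in KO, above the grey bars at 48.9% and 48.8%. The totals behind the grey bars include peaks of noncoding genes.

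Within the 3' UTR the peaks did not crowd at the end of the gene. The median genomic distance from a 3' UTR peak to the annotated gene end was 1156 (WT) and 1236 bases (KO), where all 3' UTR peaks gave 778 and 837. Of the Ube2 3' UTR peaks 9 of 27 in WT (33.3%) and 6 of 26 in KO (23.1%) ended within 500 bases of the gene end, against 42.6% and 41.2% of all. Of the 5' UTR peaks, 6 of 8 in WT and 4 of 7 in KO began within 100 bases of the annotated gene start, against 53.3% and 50.5% of all.

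The median Ube2 peak had a lower fold than the median peak of its list, but also a lower FDR. The median fold was 3.45 in WT (2.72 to 7.41) and 3.97 in KO (2.57 to 6.32), against 6.02 and 6.32 over all peaks. Both intervals reach the median over all peaks of their list. Folds ranged from 1.53 to 104 in WT and 1.44 to 47.6 in KO. The stricter FDR, meaning a listed FDR of 1e-05 or less, was reached by 29 of 39 WT peaks (74.4%, 58.9 to 85.4) and 30 of 36 KO peaks (83.3%, 68.1 to 92.1), against 51.3% and 52.2% of all. The FDR was too small to be listed, with a log10 of minus infinity, for 7 WT (17.9%) and 5 KO peaks (13.9%), against 3.63% and 3.85% of all. Ranked within its list, the median Ube2 peak stood at percentile 27.6 by fold and 75.0 by FDR in WT, and at 31.6 and 74.5 in KO. Peaks that combined a fold below the list's median with an FDR better than its median numbered 15 in WT (38.5%, against 22.4% of all peaks) and 20 in KO (55.6%, against 23.1%). The opposite combination was found in 2 (5.13%, against 22.6%) and 3 (8.33%, against 23.4%). Input coverage, on which both measures depend, was not analysed here.

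**Figure D2:**
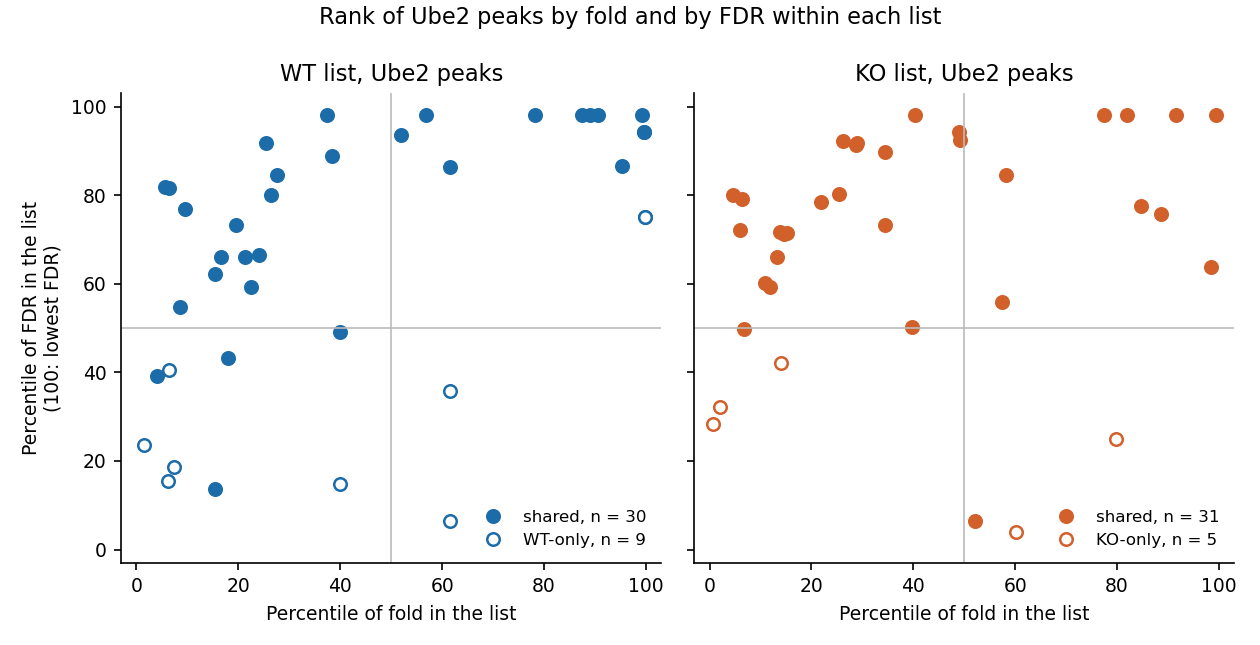
Percentile of each Ube2 peak by fold (x axis) and by FDR (y axis, 100 is the lowest FDR) within the WT list (left) and the KO list (right), with filled points for shared and open points for genotype-only peaks. Most filled points lie above the horizontal midline, and the open points above it in WT are the overlapping Ube2v1 entries of fold 104.

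Most Ube2 genes had peaks at the same places in both genotypes. Of the WT peaks 30 (76.9%, 61.7 to 87.4) overlapped a KO peak by at least 1 base on the same strand, and of the KO peaks 31 (86.1%, 71.3 to 93.9) overlapped a WT peak. WT-only peaks numbered 9 of 39 (23.1%, 12.6 to 38.3), beside 21.6% of all WT peaks. KO-only peaks numbered 5 of 36 (13.9%, 6.08 to 28.7), beside 19.3% of all KO peaks. By gene, 8 of 27 had a WT-only peak (29.6%, beside 32.0% of all genes with a peak) and 4 a KO-only peak (14.8%, beside 27.8%). No genotype-only peak was listed in 18 genes (66.7%, 47.8 to 81.4, beside 47.7%). Both kinds were listed in 3 genes, namely Ube2b, Ube2h and Ube2o, and 7.50% of all genes had both. In both lists Ube2 genes with a peak had fewer peaks per gene than all genes with a peak. A gene with fewer peaks has fewer chances to hold a genotype-only one. The shares by gene were not adjusted for this, so their gaps to all genes cannot be read as a trait of the family. At the stricter FDR the genotype-only peaks were 2 in WT, both of Ube2v1, and 0 in KO, where 2.31% and 1.86% of all peaks were of that kind.

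**Figure D3:**
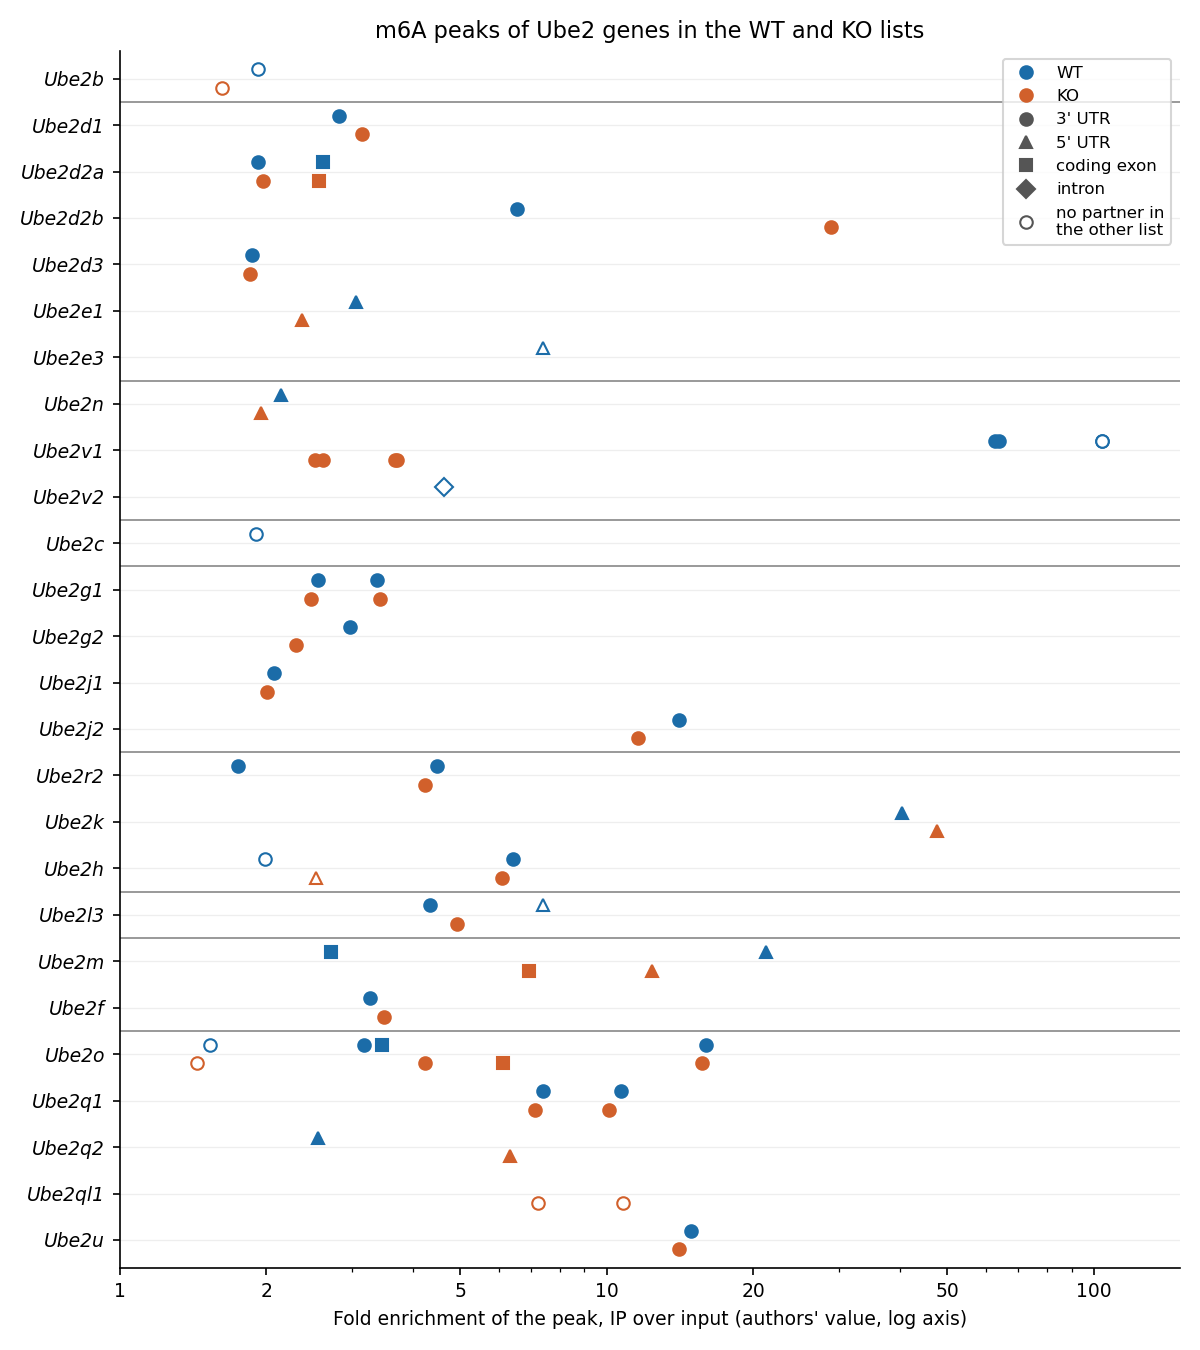
Fold of the peaks of the Ube2 genes described here (IP over input, log axis) by gene, with WT in blue and KO in orange, symbols for the position class and open symbols for peaks without a partner in the other list. Grey lines separate the role groups. The Ube2v1 points stand at 62.7 to 104 in WT and at 2.52 to 3.71 in KO, while the WT and KO points of most other genes lie side by side.

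The lists gave close folds to most overlapping peaks. In 24 cases 1 WT peak overlapped exactly 1 KO peak. The larger of both folds was a median of 1.11 times the smaller (quartiles 1.04 and 1.30), against 1.29 times (1.12 and 1.63) over all 19371 such pairs. The KO fold was the larger in 11 and the WT fold in 13. The larger fold was more than 2 times the smaller in 3 pairs (12.5%, beside 14.0% of all pairs), those of Ube2d2b, Ube2q2 and the coding exon of Ube2m, with the KO fold the larger in each. Overlaps of Ube2d2a, Ube2r2 and Ube2v1 are not among the 24, since a peak there had more than 1 partner. There the larger fold was 1.02 to 1.42 times the smaller in Ube2d2a, counting overlaps with a Cxxc5 entry. It was 1.06 to 2.42 times in Ube2r2 and 16.9 to 25.4 times in Ube2v1. Either the start or the end was the same base in 17 of the 24 pairs (70.8%, against 53.3% of all), and both were in 4 (Ube2g1, Ube2h, Ube2k and Ube2l3). The folds were made separately for each genotype, so a gap between them is not a measured change in methylation.

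**Figure D4:**
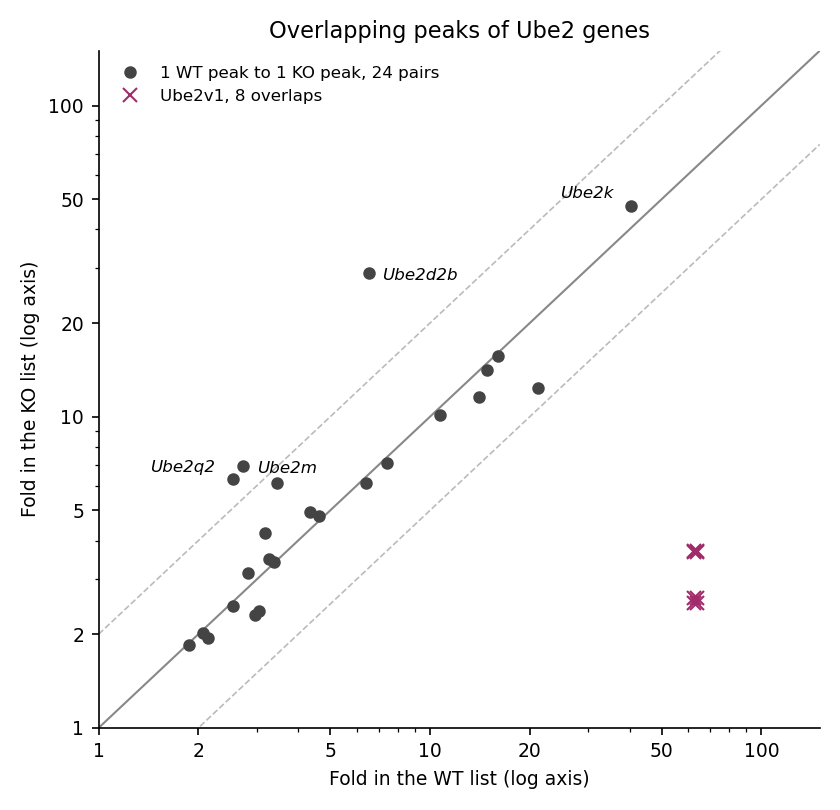
Fold in the WT list (x axis) against fold in the KO list (y axis) for overlapping peaks of Ube2 genes, both on log axes. Points are the 24 pairs of 1 WT and 1 KO peak, crosses the 8 overlaps of Ube2v1, the solid line marks equal folds and the dashed lines a ratio of 2. Ube2d2b (6.55 and 28.9) lies above the dashed lines and Ube2v1 far below them.

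The widest gap between the lists was in Ube2v1 (ENSMUSG00000078923, chromosome 2, minus strand), in the group that builds Lys63-linked chains. Ube2v1 is an E2 variant without a catalytic cysteine, which works as the partner of Ube2n. In the WT list its 3' UTR held a peak of fold 104 next to the gene end (167607668 to 167608056, log10 FDR -28.9) that had no KO partner. The nearest KO peak lay 388 bases away. Farther from the end the WT list had a peak of fold 62.7 (167608266 to 167609222, log10 FDR -230). The KO list had 2 separate short peaks within that stretch, at 167608445 to 167608804 (fold 3.68, log10 FDR -167) and 167608983 to 167609133 (fold 2.62, log10 FDR -24.4). The WT fold was thus 17.0 and 23.9 times the KO folds, while the FDR of the WT and of the first KO peak were both far below those of most peaks in their lists (percentiles 94.3 and 91.3).

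Each of these Ube2v1 peaks was listed again with different ends. For the WT-only peak the second entry spanned 181 bases, within the 389 of the first. The second entries had folds of 104 (167607850 to 167608030) and 63.9 (167608269 to 167609228) in WT and 3.71 (167608449 to 167608808) and 2.52 (167608958 to 167609138) in KO. Counted by place, Ube2v1 therefore had 2 WT and 2 KO positions rather than 4 and 4. Of all peaks 5.28% in WT and 5.32% in KO overlapped another peak of their own list and strand. The WT-only peak also shared 148 bases with a peak of Gm11476 on the opposite strand (fold 8.33, log10 FDR -0.82). The fold of 104 was listed for 3 WT peaks, 2 of which are these entries.

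Ube2n showed no such gap, and Ube2v2 had no KO peak to compare. Ube2n, the catalytic E2 for Lys63 chains, had a 5' UTR peak at the gene start in both lists (chromosome 10, 95515145 to 95515771 in WT, ending at 95515741 in KO), with folds of 2.14 and 1.95 and log10 FDR of -35.1 and -25.4. Ube2v2, the other E2 variant that pairs with Ube2n, had a WT-only intronic peak (chromosome 16, 15594087 to 15594267, fold 4.63) with a log10 FDR of only -1.32. That fold was shared by 603 WT peaks.

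**Figure D5:**
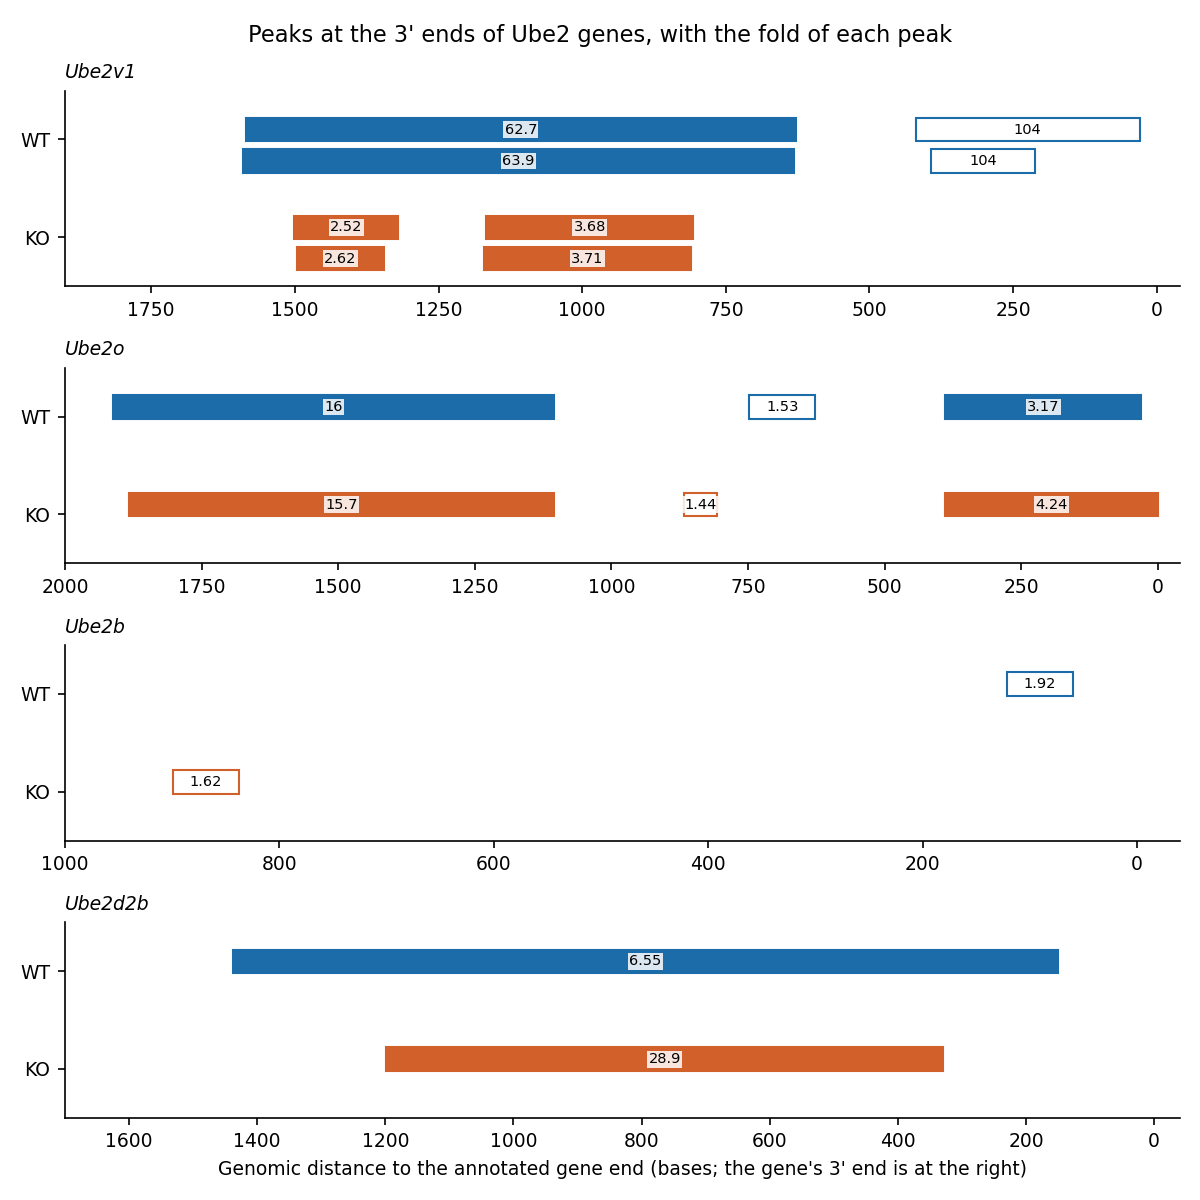
Peaks at the 3' ends of Ube2v1, Ube2o, Ube2b and Ube2d2b, drawn to scale by genomic distance in bases to the annotated gene end, which is at the right. WT peaks are blue and KO peaks orange, open boxes have no partner in the other list, and the number in each box is its fold. The 2 open WT boxes of Ube2v1 are overlapping entries, and the open boxes of Ube2o and of Ube2b lie at different distances in WT and KO.

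Ube2b, the Rad6 homologue that ubiquitinates histone H2B and PCNA with its E3 partners, had 1 weak 3' UTR peak in each list, at different places. The WT peak lay at chromosome 11, 51985557 to 51985617 (fold 1.92, log10 FDR -3.45) and the KO peak at 51986335 to 51986395 (fold 1.62, log10 FDR -2.53), with 717 bases between them. Both were 61 bases long, the shortest span found in the family. Its X-linked relative Ube2a had no peak in either list.

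Among the broad-range E2s that start chains with many E3 ligases, 6 of 8 genes had a peak, and Ube2e2 and Ube2w had none. Ube2d1 had a shared 3' UTR peak near the gene end (chromosome 10, 71255190 to 71255728 in WT), with folds of 2.82 in WT and 3.15 in KO. Ube2d3 had a long 3' UTR peak with folds of 1.87 and 1.85. Ube2d2a had a coding peak (folds 2.62 and 2.57) and a 3' UTR peak (1.92 and 1.97), and an entry assigned to Cxxc5 on the same strand covered the 3' UTR peak and part of the coding peak. In these genes the folds of both lists differed by at most 1.12 times.

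Ube2d2b, a close relative of Ube2d2a, behaved otherwise. Its 3' UTR peak (chromosome 5, plus strand) ran from 107830339 to 107831626 in WT with a fold of 6.55 and an FDR too small to be listed. In the KO list it was shorter (107830578 to 107831447), with a fold of 28.9 and a log10 FDR of -12.6. The list with the higher fold was therefore the one with the weaker FDR, at percentiles of 63.9 in KO and 98.2 in WT. The Ube2d genes are similar in sequence, and the sources used here do not say how reads that fit several of them were counted.

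The Ube2e genes carried their peaks at the gene start. Ube2e1 had a shared 5' UTR peak spanning an intron (chromosome 14, 18327290 to 18331769 in WT), with folds of 3.05 in WT and 2.37 in KO. Ube2e3, an E2 with an extended N-terminus like Ube2e1, had a single WT-only peak, in the 5' UTR (chromosome 2, 78868154 to 78868393, fold 7.41, log10 FDR -2.85). No KO peak was listed for it. The fold of 7.41 was listed for 1133 peaks of the WT list.

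The 4 E2s of the endoplasmic reticulum, which tag misfolded proteins for export and degradation, had 5 peaks in each list, all shared and all in 3' UTRs. Ube2j2, anchored in the membrane, had the strongest (chromosome 4, 155956363 to 155957715 in WT), with folds of 14.1 in WT and 11.6 in KO and an FDR too small to be listed in both. Ube2j1, its relative that mice need for spermatid development, had a short peak (33049851 to 33049970 in WT, folds 2.07 and 2.01). Ube2g1 had a peak with the same ends in both lists (chromosome 11, 72680106 to 72683818, folds 3.37 and 3.42) and a shorter one (folds 2.55 and 2.47). Ube2g2 had 1 peak with folds of 2.97 and 2.30.

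Ube2k, which makes Lys48-linked chains on its own, had the strongest peak with close folds in both lists. It was annotated to the 5' UTR and ran from the gene start over 28772 bases of genome, introns included (chromosome 5, 65537233 to 65566004), with the same ends in both. Its folds were 40.4 in WT and 47.6 in KO, at percentiles of 99.2 and 99.5, and its FDR was too small to be listed in both. The GGAC shown above lies within the first bases of this peak, and the rest of its span was not searched.

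Ube2h and Ube2r2 work with the CTLH and cullin ligases. Ube2h had a shared 3' UTR peak with the same ends in both lists (chromosome 6, 30213768 to 30214515, folds 6.41 and 6.10), a weak WT-only peak at the gene end (fold 1.99, log10 FDR -1.50) and a KO-only peak at the gene start (30304360 to 30304539, fold 2.53, log10 FDR -3.87). Ube2r2, a relative of Cdc34, had 2 WT peaks in its 3' UTR (chromosome 4, 41190748 to 41191107, fold 4.49, and 41191316 to 41191376, fold 1.75) that overlapped a single KO peak (41190777 to 41191495, fold 4.23). Ube2c, which starts chains for the anaphase-promoting complex, had 1 WT-only 3' UTR peak (chromosome 2, 164772718 to 164772807, fold 1.91, log10 FDR -1.33). The KO list named no peak for it.

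Ube2l3, which serves HECT and RBR ligases, had a shared 3' UTR peak with identical ends (chromosome 16, 17153900 to 17154259), folds of 4.34 in WT and 4.93 in KO, and an FDR too small to be listed in both. Its WT-only 5' UTR peak (17201517 to 17202589) had a fold of 7.41 but a log10 FDR of -0.767, an FDR above 0.05. The stronger fold of this gene thus belonged to its weaker peak by FDR.

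Of the E2s for ubiquitin-like modifiers, Ube2m and Ube2f had shared peaks alone. Ube2m, which loads NEDD8 onto cullins, had a 5' UTR peak of fold 21.2 in WT (chromosome 7, 13037798 to 13038156) and 12.4 in KO (13037828 to 13038156), with log10 FDR of -90.0 and -43.3. Its coding peak went the other way, with a fold of 2.72 in WT (13037407 to 13037559, log10 FDR -3.88) and 6.92 in KO (13037407 to 13037619, log10 FDR -7.59). The KO peak was longer at its 5' side, where the 2 GGAC sites of the coding peak shown above lie. Only 42 bases there, inside a promoter entry, were searched. The rest of the KO coding peak and the whole WT coding peak were not, so GGAC cannot be called particular to the KO peak. Ube2f, the other E2 for NEDD8, had a 3' UTR peak with folds of 3.27 and 3.49. Ube2l6, the E2 for ISG15, had no peak.

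Of the large or unusual members, Ube2o had the most places. Ube2o is a long protein that acts as E2 and E3 at once. Each list gave it 4 peaks on chromosome 11. The strongest was a 3' UTR peak of fold 16.0 in WT (116538845 to 116539652) and 15.7 in KO, with an FDR too small to be listed in both. The coding peak (116541417 to 116541746 in WT) had folds of 3.45 in WT and 6.13 in KO, with log10 FDR of -74.0 and -195. The peak at the gene end had folds of 3.17 and 4.24. Between them lay a weak WT-only peak of fold 1.53 and a weak KO-only peak of fold 1.44, with 58 bases between these.

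Ube2q1, with an extended N-terminus, had 2 shared 3' UTR peaks on chromosome 3. The longer (89781086 to 89782743 in WT) had folds of 10.7 and 10.1, and the one at the gene end (89782803 to 89783880 in WT) 7.41 and 7.12. Its relative Ube2q2 had a shared peak at the gene start with folds of 2.55 in WT and 6.32 in KO, neither with an FDR below 0.05 (log10 FDR -1.18 and -0.734), and 1593 KO peaks had the fold of 6.32. Ube2u had a peak at the end of its 3' UTR that spanned introns (chromosome 4, 100524299 to 100550147 in WT), with folds of 14.9 in WT and 14.1 in KO. Its FDR was too small to be listed in WT and had a log10 of -36.1 in KO, where the span began at 100532146. Ube2ql1 was the 1 member with KO peaks alone, both in the 3' UTR (chromosome 13, 69702832 to 69703070, fold 10.8, log10 FDR -1.92, and 69703664 to 69704079, fold 7.22, log10 FDR -0.572). Ube2z and Ube2t, which acts in the Fanconi DNA repair pathway, had no peak.

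In all, 3 genes (Ube2c, Ube2e3 and Ube2v2) were found in WT alone and 1 (Ube2ql1) was found in KO alone, or 11.1% (3.85 to 28.1) and 3.70% (0.657 to 18.3), beside 11.7% and 8.08% of all genes with a peak. None of their 5 peaks passed the stricter FDR. In whole testis a missing peak can go with fewer cells of a type or with less RNA or methylation per cell, and these cannot be told apart here. Of the 36 protein-coding Ube2 genes that RefSeq names, 27 had a peak in either list (75.0%, 58.9 to 86.2), against 61.9% of all 21896 protein-coding genes. Those without were Ube2a, Ube2cbp, Ube2dnl1, Ube2dnl2, Ube2e2, Ube2l6, Ube2t, Ube2w and Ube2z.

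Some folds were held by many peaks of the same list. Folds held by 500 or more peaks of the same list were found in 3 of 9 WT-only and 2 of 5 KO-only Ube2 peaks (33.3% and 40.0%), against 40.8% and 41.1% of all genotype-only peaks. Among shared Ube2 peaks they were found in 2 of 30 in WT and 1 of 31 in KO (6.67% and 3.23%), against 16.7% and 15.8% of all shared peaks. The genotype-only peaks among them were those of Ube2e3, Ube2l3, Ube2v2 and Ube2ql1.

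Activating enzymes, E2s outside the Ube2 names, modifiers and E3 ligase genes were examined as 4 lists of 53 genes in all. Of these genes 44 had a peak. A WT-only peak was listed in 13 of the 44 (29.5%, beside 32.0% of all genes with a peak), a KO-only peak in 13 (29.5%, beside 27.8%) and neither in 23 (52.3%, beside 47.7%). These shares lie near those of all genes. At the stricter FDR 3 genes had a WT-only peak (Sae1, Nedd8 and Rnf20) and 6 a KO-only peak (Uba2, Uba3, Birc6, Nedd8, Huwe1 and Rnf20), where 3.87% and 3.15% of all genes with a peak had one. By list, such WT-only and KO-only peaks were found in 1 and 2 of 7 activating enzyme genes, in 0 and 1 of 7 E2 genes outside the Ube2 names, in 1 and 1 of 7 modifier genes and in 1 and 2 of 23 E3 ligase genes.

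Both subunits of the SUMO activating enzyme were among them. Sae1 had WT-only peaks in the 3' UTR (chromosome 7, 16327059 to 16327179, fold 2.08, log10 FDR -5.19) and in coding exons (16378433 to 16387746, fold 1.97, log10 FDR -10.9). Uba2 had its 1 peak in the KO list (3' UTR, chromosome 7, 34141136 to 34141285, fold 1.64, log10 FDR -20.4). Uba3, which activates NEDD8, had a KO-only 3' UTR peak of fold 3.02 (log10 FDR -11.8). The 1 WT peak of Uba3 was WT-only and did not pass the stricter FDR. In Nedd8 itself a 3' UTR peak of fold 1.37 was listed in WT alone (log10 FDR -5.73) and a coding peak of fold 1.39 in KO alone (log10 FDR -20.9). Ube2m and Ube2f, the E2s for NEDD8, had shared peaks alone.

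Among the others, Birc6, a giant protein with E2 and E3 activity, carried a coding peak found in KO alone (chromosome 17, 74649641 to 74650060, fold 2.81, log10 FDR -38.3). Huwe1, a HECT ligase, likewise carried one of fold 1.51 (log10 FDR -17.1). Rnf20, the E3 that works with Ube2a and Ube2b on histone H2B, had a WT-only intronic peak of fold 2.63 (log10 FDR -8.51) and a KO-only 3' UTR peak of fold 2.03 (log10 FDR -19.7). These folds were lower than the median of all peaks in their lists, 6.02 in WT and 6.32 in KO.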

How the data were processed

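MeRIP-seq of mouse testis at postnatal day 18 was deposited as 1 peak list per genotype, each comparing IP with input libraries. The submitters' processing notes name the build GRCm38 and the tools HISAT2, StringTie, HOMER, FastQC and fastp, with no version and no role. Neither the peak caller nor any pooling of replicates is given in the sources used here. Each list holds, per the file headers, a fold enrichment (a linear ratio of IP over input by the authors). The log10 of p-value and FDR, per the file headers, was handled as a score because some values are minus infinity. Genes and position classes are the authors'. The deposited span in bases is 1 too long, since starts are counted from 0, and positions are given from 1. No values per library were used, so depth is unknown and no test was run. Peaks were called shared when at least 1 base overlapped on the same strand (checked with bedtools 2.31.1 and tested on simulated data), irrespective of gene name. Shares and medians are set beside all features of a list, with no p-value.

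The members, role groups and gene lists were chosen with earlier results of these data known. Values are given for Ube2 genes with a genotype-only peak at the stricter FDR, with peaks in 1 list alone, with the highest WT fold of a role group or of the shared pairs, or with the most peaks. The remaining Ube2 genes were added after their values were seen. Genes of the other lists are named where they had a genotype-only peak at the stricter FDR. Of the genes that fit the name pattern, 1 was left out of all counts and 1 more is counted but not reported here.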

Additional observations from a re-analysis of the deposited data

How the results depend on the processing

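Across 16 summary results and 9 alternatives, 2 of them chosen after seeing the data, 82 of the 100 values that an alternative could move stayed within 1.5 times the count or within the interval of the share or median, and 18 did not. With 50% of both peaks required to overlap, there were 14 WT-only and 11 KO-only peaks, genes with a KO-only peak numbered 7, and 69.4% of KO peaks kept a partner. Ube2v1, Ube2r2 and Ube2q2 then had peaks of both kinds, since their peaks differ in length between the lists. When the stricter FDR was applied to both lists, 2 WT-only peaks in 1 gene (Ube2v1) and 1 KO-only peak in 1 gene (Ube2m, whose WT partner missed the limit) were left. The shares with a partner were 93.1% and 96.7%, while 0 genes had peaks in WT alone and 0 in KO alone. With partners taken from all peaks, 2 WT-only peaks in 1 gene and 0 KO-only peaks in 0 genes passed, and the shares were 93.1% and 100%. An FDR of 0.05, partners within 200 bases or on either strand, lists of equal length, merged entries, and leaving out Ube2v1 moved no result past these bounds. The retrocopies and Ube2cbp had no peak, so leaving them out tests nothing. Leaving out replicates could not be run without values per library. No paired analysis was possible because the lists hold no values per library. Depth limits every statement on a missing peak, since the coverage there is unknown.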
